A study of Mus musculus with 15 samples.

Results

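The NRF2 genes described here are Nfe2l2, which encodes the transcription factor NRF2, and 6 of its classical target genes, Nqo1, Hmox1, Gclc, Gclm, Txnrd1 and Srxn1. They were found on the arrays through the accession each probe carries, which gave 8 probes for these 7 genes, out of 55681 probes and 21173 genes named in all. Hmox1 had 2 probes and each other gene had 1. The study sorted endothelial cells from mouse liver into 5 groups and hybridised 3 RNA samples of each to Agilent arrays with a single dye, 15 arrays in all. EC-SP and EC-MP came from animals 8 weeks old, and the labels give them only as SP and MP, read here as side and main population of a dye efflux sort. The other 3 groups were adult liver endothelial cells sorted by their surface CD157, a protein encoded by Bst1, and CD200. They were CD157+CD200+ cells, CD157-CD200+ cells and CD157-CD200- cells. The labels name no treatment, and strain and genotype are not given in the sources used here. All RNA passed through whole transcriptome amplification before labelling, and the labels do not say whether the 3 samples of a group came from separate animals, so each p-value refers to the spread of the 3 samples, part or all of which may be technical.

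NRF2 is held at a low level by KEAP1, an adaptor that presents it to a CUL3 ubiquitin ligase. Electrophiles and oxidants modify KEAP1, and NRF2 then accumulates, pairs with a small MAF protein and binds antioxidant response elements in its target genes, where the repressor BACH1 competes for the same sites. The targets make glutathione, reduce quinones and oxidised thiols, and break down haem. In liver the pathway is best known from hepatocytes facing drugs and bile acids, and in blood vessels it is known as part of the response to laminar flow.

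Promoter sequences were read from RefSeq on build GRCm38.p6, from 250 bases before to 50 bases after each annotated start, and were found for 5 of the 7 genes. The core of the antioxidant response element, TGACNNNGC on either strand, occurred in 4071 of 32851 promoters of that length, or 12.4%. It occurred once in the window of Nfe2l2, of Gclm, of Srxn1 and of 1 of the 3 annotated Txnrd1 starts, and not in the window of Nqo1. The windows of 4 genes are shown because Nfe2l2, Nqo1 and Txnrd1 were called between sorted groups and Srxn1 was called in no comparison fitted without regard to the slides. Capitals mark the match, which begins at position -240 from the start site in Nfe2l2, at -92 in Txnrd1 and at 28 in Srxn1. The sequences run 5′ to 3′ on the strand of the gene, the minus strand for Nfe2l2 (chr2:75704614-75704913) and Nqo1 (chr8:107403156-107403455) and the plus strand for Txnrd1 (chr10:82858956-82859255) and Srxn1 (chr2:152105274-152105573). A match, or the lack of one, is a description of these letters only, and bases outside the windows were not searched.
Nfe2l2: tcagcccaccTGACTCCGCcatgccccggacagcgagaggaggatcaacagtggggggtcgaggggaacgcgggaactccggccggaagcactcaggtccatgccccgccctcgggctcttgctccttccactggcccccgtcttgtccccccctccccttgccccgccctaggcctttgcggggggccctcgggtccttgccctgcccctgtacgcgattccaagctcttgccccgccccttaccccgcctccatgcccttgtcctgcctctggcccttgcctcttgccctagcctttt
Nqo1: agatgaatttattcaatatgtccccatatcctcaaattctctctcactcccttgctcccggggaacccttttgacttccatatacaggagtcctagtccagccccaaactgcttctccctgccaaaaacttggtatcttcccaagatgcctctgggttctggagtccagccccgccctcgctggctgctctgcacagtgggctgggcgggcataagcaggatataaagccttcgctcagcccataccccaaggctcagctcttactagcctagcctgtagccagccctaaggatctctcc
Txnrd1: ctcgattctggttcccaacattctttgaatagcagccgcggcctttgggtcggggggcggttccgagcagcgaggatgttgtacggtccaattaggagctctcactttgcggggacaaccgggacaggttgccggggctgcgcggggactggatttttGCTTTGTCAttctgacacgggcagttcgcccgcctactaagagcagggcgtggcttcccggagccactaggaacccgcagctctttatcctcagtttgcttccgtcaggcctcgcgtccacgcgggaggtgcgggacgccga
Srxn1: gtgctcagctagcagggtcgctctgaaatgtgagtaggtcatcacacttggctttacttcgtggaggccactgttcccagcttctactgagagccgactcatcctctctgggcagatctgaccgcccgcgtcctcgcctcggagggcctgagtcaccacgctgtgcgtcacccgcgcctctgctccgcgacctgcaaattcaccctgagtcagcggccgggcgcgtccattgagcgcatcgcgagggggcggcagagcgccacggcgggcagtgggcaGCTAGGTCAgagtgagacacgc

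The antibody sort was visible on the arrays in Bst1 and Cd200, which are not a check of the dye sort. Bst1 was higher in EC-SP than in EC-MP by 4.35 ± 0.24 on the log2 scale (limma, SE, 3 arrays a group, adjusted p = 2.6e-05) and higher in CD157+CD200+ than in CD157-CD200- cells by 5.74 ± 0.25 (adjusted p = 5.3e-07). The level of Cd200 was higher at least 320-fold in CD157+CD200+ than in CD157-CD200- cells, in which no array had it well above background. The share of an array's spots well above background ranged from 57.3% to 69.4%, and precision is limited by having only 3 arrays in a group. All 9 endothelial markers, among them Pecam1 and Cdh5, were well above background on all 3 arrays of every group. Markers of other liver cells were also present and differed between groups. Each list was summed on the linear scale, in units of the array's 75th percentile. The 13 Kupffer cell markers summed to between 54.1 and 66.9 in CD157-CD200- cells, against 28.0 to 38.4 in the other 2 subsets, 27.2 to 31.5 in EC-SP and 29.2 to 37.8 in EC-MP. Of these 13, Timd4 and Cd163 were not well above background on any of the 15 arrays. The other 11, among them Clec4f and Vsig4, were well above background on all 3 CD157-CD200- arrays. The 11 hepatocyte markers summed to between 40.9 and 48.1 in CD157-CD200- cells and to between 11.7 and 15.6 in the other 2 subsets, and the 5 red cell markers to between 10.8 and 21.8 against 1.20 to 1.74. Hepatocyte markers summed to between 9.94 and 11.7 in EC-SP and between 9.23 and 9.86 in EC-MP, without overlap. Red cell markers summed to between 1.21 and 1.80 in EC-SP and between 2.54 and 4.52 in EC-MP. The 9 cholangiocyte markers summed to between 12.5 and 17.0 in EC-SP and between 5.05 and 5.53 in EC-MP. In the subsets they summed to between 6.38 and 8.54 in CD157+CD200+, 3.81 and 5.70 in CD157-CD200+ and 4.71 and 6.29 in CD157-CD200- cells. The CD157+CD200+ sums overlapped neither of the others. The 8 stellate cell markers summed to between 3.48 and 4.87 in CD157+CD200+ cells, 2.64 and 4.17 in CD157-CD200+ cells, 2.55 and 3.06 in CD157-CD200- cells, 1.64 and 2.74 in EC-SP and 1.85 and 2.88 in EC-MP. Their sums in CD157+CD200+ and CD157-CD200- cells did not overlap. The 5 leukocyte markers summed to between 4.61 and 5.65 in EC-SP and 5.76 and 6.20 in EC-MP, which did not overlap, and to between 3.85 and 4.997 in the subsets. In such bulk samples, fewer cells of a type and less RNA per cell cannot be told apart.

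**Figure D1:**
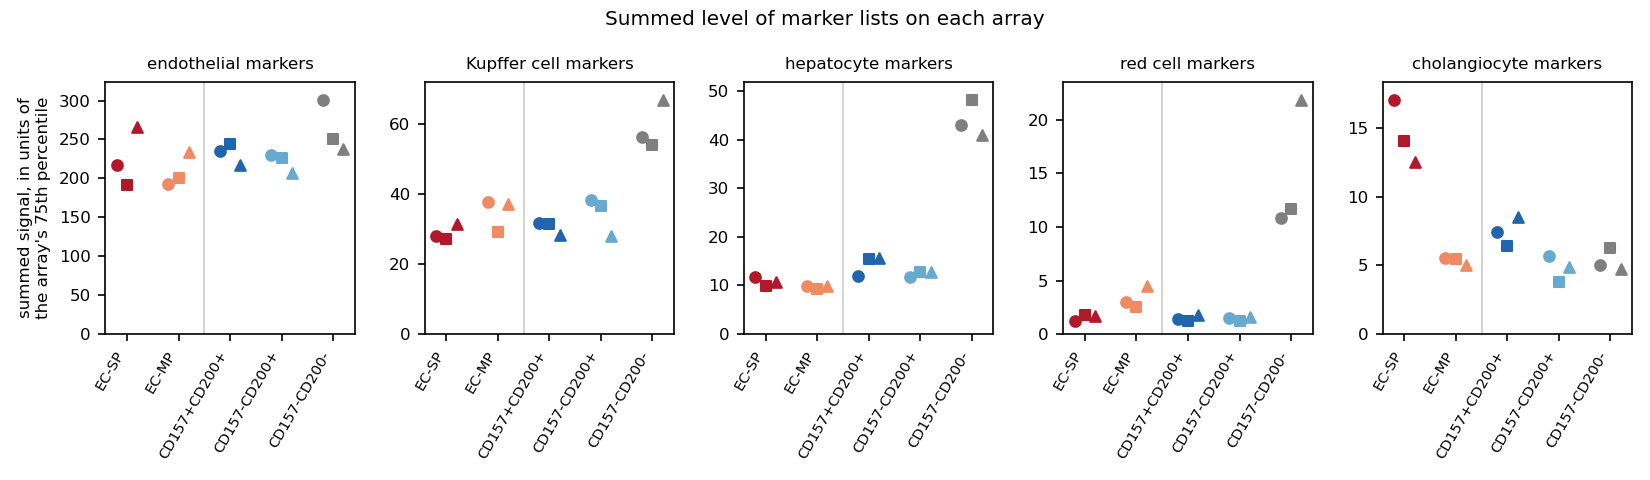
Summed signal of 5 marker lists on each of the 15 arrays, in units of the array's 75th percentile, with each axis starting at 0. Points are arrays, with circles, squares and triangles for replicates 1, 2 and 3. CD157-CD200- cells stand above the other 2 subsets for Kupffer cell, hepatocyte and red cell markers, and EC-SP stands above EC-MP for cholangiocyte markers.

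Values below are log2 signals from which the log2 75th percentile of the same array was subtracted, so that 0 is a signal at that percentile and each unit is a doubling. To be tested, a gene's probe had to be well above background on every array of some group, which held for 6 of the 7 genes. Gclm was not. Between EC-SP and EC-MP 4 of the 6 tested genes were called at an adjusted p under 0.05, against 16.5% of all features. Nfe2l2, Hmox1 and Txnrd1 were higher in EC-SP and Nqo1 was lower, where 9.15% of all features were called higher and 7.39% lower. The higher share of the calls over all features, 55.3%, fell to 39.8% in the authors' series table, which moved the median difference of all features from -0.0028 to -0.17, and the directions of the 4 genes were the same there. With 1 array left out 1 gene was called without replicate 2 or 3 of EC-SP or EC-MP, 2 were called without EC-MP replicate 1, and 3 without EC-SP replicate 1. Gclm was 1 of these 3 only because it then passed the filter through EC-SP alone. Between CD157+CD200+ and CD157-CD200- cells 3 genes were called, against 15.2% of all features. Nqo1 and Txnrd1 were higher in the CD157+CD200+ cells (8.12% of features were) and Hmox1 was lower (7.11% were). The same 3 genes were called in the same directions between CD157-CD200+ and CD157-CD200- cells, where 11.8% of features were called, 6.31% higher and 5.52% lower. These last comparisons share the CD157-CD200- arrays and are not independent of each other. In limma's F test for any difference among the 3 subsets the same 3 genes were called, against 13.9% of features. Between CD157+CD200+ and CD157-CD200+ cells limma called 0 of the 6 genes, against 1.05% of features, and 0 of the 6 reached an unadjusted p under 0.05. Gclc and Srxn1 were not called in any of these comparisons, which were fitted without regard to the slides. With the replicate block, which is also the slide, Nfe2l2 was called as well in both comparisons with CD157-CD200- cells. Srxn1 was then called for CD157-CD200+ minus CD157-CD200-. With so few genes the shares are only a description. The median difference over the 6 genes was 0.42 for EC-SP minus EC-MP, 0.13 for CD157+CD200+ minus CD157-CD200- and 0.19 for CD157-CD200+ minus CD157-CD200-, and over all features it was -0.0028, 0.0070 and 0.020.

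**Figure D2:**
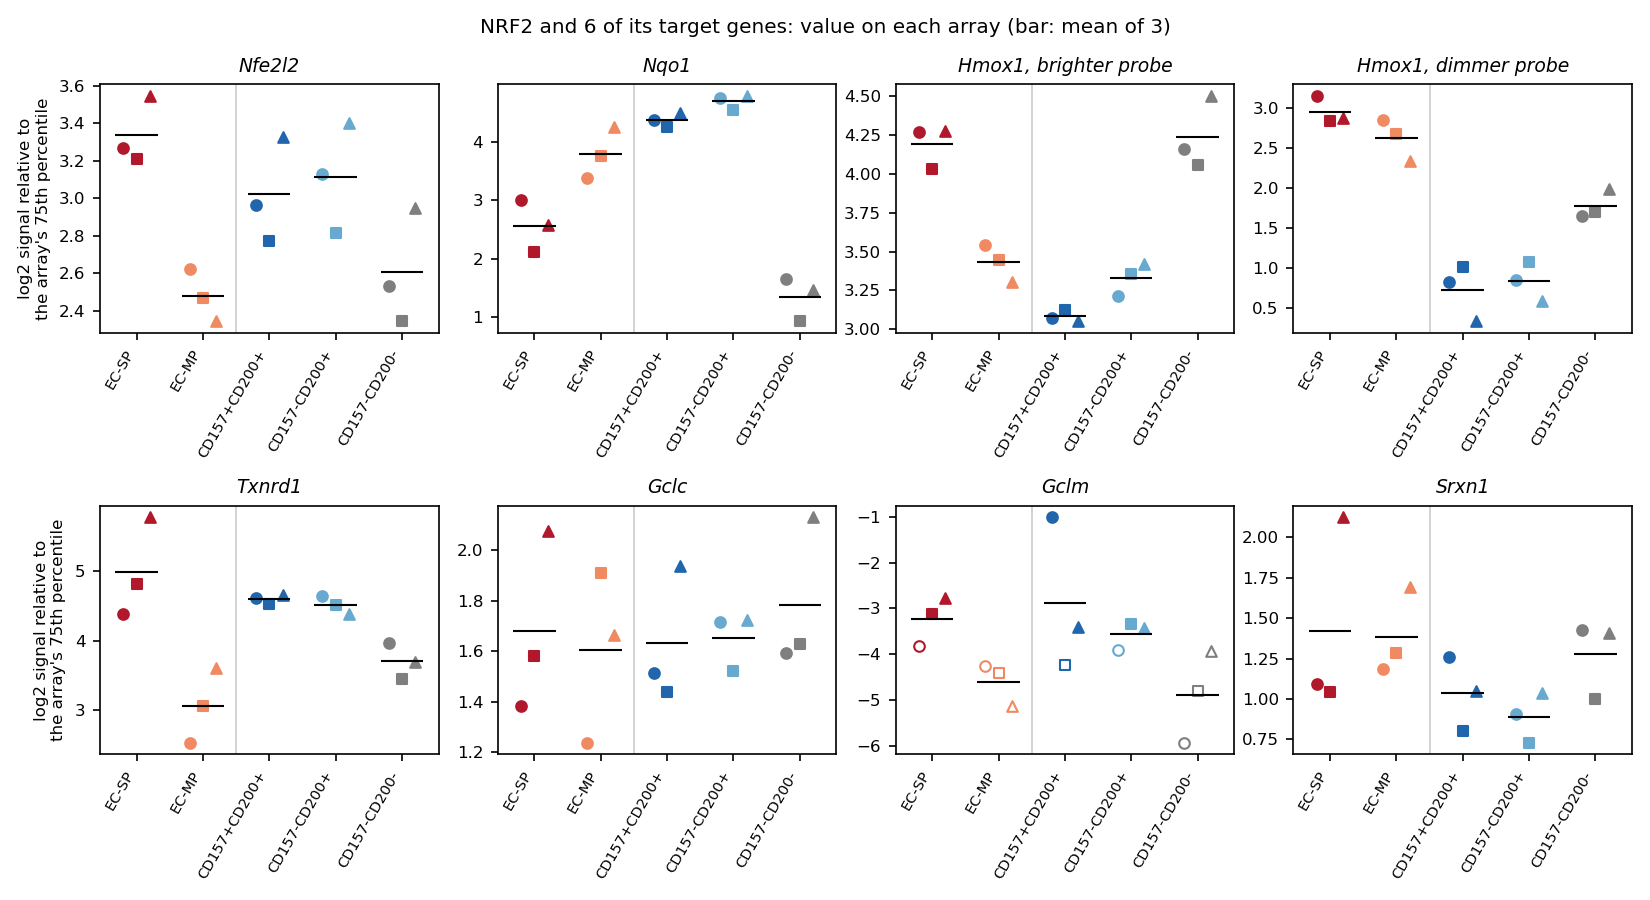
Log2 signal relative to the array's 75th percentile for each gene on each array, with separate vertical scales. Circles, squares and triangles are replicates 1, 2 and 3, bars are means of 3, open symbols are arrays on which the probe was not well above background, and Hmox1 has a panel for each of its 2 probes. Among the 3 subsets the CD157-CD200- cells have the lowest Nqo1 and the highest Hmox1, while all Gclm values lie below the 75th percentile.

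Nfe2l2, the gene of the regulator itself, was higher in EC-SP than in EC-MP. Its values were 3.27, 3.21 and 3.55 in EC-SP replicates 1 to 3 and 2.62, 2.47 and 2.34 in EC-MP. Every EC-SP array thus lay above every EC-MP array, and the difference was 0.86 ± 0.22 (SE, n = 3 per group, limma, adjusted p = 0.027), or 1.82-fold. The call was close to the threshold, since leaving out any 1 of the 6 arrays gave an adjusted p between 0.055 and 0.080, the authors' series table gave 0.70 ± 0.22 (adjusted p = 0.057), and no filter on dim probes gave an adjusted p of 0.082. In the subsets Nfe2l2 read 2.96, 2.77 and 3.32 in CD157+CD200+ cells, 3.13, 2.82 and 3.40 in CD157-CD200+ cells, and 2.53, 2.35 and 2.95 in CD157-CD200- cells. The 3 groups overlapped, and without regard to the slides CD157+CD200+ minus CD157-CD200- was 0.41 ± 0.24 (adjusted p = 0.33) and CD157-CD200+ minus CD157-CD200- was 0.51 ± 0.24 (adjusted p = 0.26). The arrays of 1 replicate number shared a slide, and within the slides the first difference was 0.43, 0.42 and 0.38 and the second 0.59, 0.47 and 0.45. With the replicate block, which is also the slide, both were called, at 0.41 ± 0.09 (adjusted p = 0.017) and 0.51 ± 0.09 (adjusted p = 0.0092), as was the F test over the 3 subsets (adjusted p = 0.015). CD157+CD200+ minus CD157-CD200+ was -0.09 (95% interval -0.63 to 0.44).

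Nqo1 encodes an enzyme that reduces quinones directly to hydroquinones and so spares the cell reactive semiquinones. Its differences ran in opposite directions in the 2 kinds of sort, and in both comparisons with CD157-CD200- cells they were wider than those of the other 5 tested genes. Its values were 3.00, 2.11 and 2.58 in EC-SP and 3.38, 3.75 and 4.25 in EC-MP, with no overlap. The difference was -1.23 ± 0.31 (adjusted p = 0.028), that is 2.35-fold lower in EC-SP. Within the slides it was -0.38, -1.64 and -1.67, so the pair numbered 1 differed least. Leaving out EC-SP replicate 2 or 3, or EC-MP replicate 2 or 3, took the call away, with an adjusted p between 0.066 and 0.097, as did leaving out the filter on dim probes (adjusted p = 0.088). In the subsets Nqo1 read 4.37, 4.25 and 4.49 in CD157+CD200+ cells and 4.75, 4.55 and 4.79 in CD157-CD200+ cells. It read only 1.66, 0.93 and 1.45 in CD157-CD200- cells, so both CD200+ subsets lay far above the subset that lacked CD200. CD157+CD200+ minus CD157-CD200- was 3.03 ± 0.21 (adjusted p = 9.6e-06), or 8.15-fold, and 2.71, 3.33 and 3.04 within the slides. CD157-CD200+ minus CD157-CD200- was 3.35 ± 0.21 (adjusted p = 7.0e-06), or 10.2-fold. Both calls held under every alternative tried and with any array left out. The CD157-CD200+ arrays all lay above the CD157+CD200+ arrays, but that difference, -0.33 (95% interval -0.80 to 0.15, adjusted p = 0.85), did not pass the test. The CD157-CD200- cells that were low in Nqo1 were those with the high Kupffer cell, hepatocyte and red cell marker sums given above, whose part in the result was not tested.

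Hmox1 encodes haem oxygenase 1, which opens the haem ring to give biliverdin, carbon monoxide and iron. Its brighter probe read 4.27, 4.03 and 4.27 in EC-SP and 3.54, 3.45 and 3.31 in EC-MP, without overlap. The difference was 0.76 ± 0.21 (adjusted p = 0.039), or 1.69-fold. This call was lost under 11 of the 17 alternatives tried. The dimmer probe read 3.16, 2.84 and 2.88 against 2.85, 2.68 and 2.35, with overlap, and gave 0.33 ± 0.24 (adjusted p = 0.39). Leaving out any of the 6 arrays gave an adjusted p between 0.064 and 0.12, and quantile normalization (0.077), the authors' series table (0.079), no filter on dim probes (0.11) and the mean of both probes (0.11) lost the call as well. In the subsets Hmox1 was highest in the CD157-CD200- cells, where Nqo1 was lowest. The brighter probe read 3.08, 3.12 and 3.05 in CD157+CD200+ cells, 3.21, 3.36 and 3.42 in CD157-CD200+ cells, and 4.16, 4.06 and 4.50 in CD157-CD200- cells. CD157+CD200+ minus CD157-CD200- was -1.16 ± 0.17 (adjusted p = 0.0014), 2.23-fold lower, and CD157-CD200+ minus CD157-CD200- was -0.91 ± 0.17 (adjusted p = 0.0070). The dimmer probe gave -1.06 ± 0.23 (adjusted p = 0.012) and -0.94 ± 0.23 (adjusted p = 0.026), so both probes were called in both comparisons. No CD157+CD200+ array reached a CD157-CD200+ array on the brighter probe, yet the difference of -0.25 (95% interval -0.64 to 0.14, adjusted p = 0.88) did not pass. Macrophages that clear red cells are a well known source of haem oxygenase 1. Of the 11 Kupffer cell markers tested, 7 (63.6%) were called lower in CD157+CD200+ than in CD157-CD200- cells and 6 (54.5%) lower in CD157-CD200+ cells. Of the 9 hepatocyte markers tested, 8 (88.9%) and 9 (100%) were. Over all features 7.11% and 5.52% were called lower in these comparisons. Between EC-SP and EC-MP 4 of 9 tested Kupffer cell markers (44.4%, beside 7.39% of all features) were called lower in EC-SP. Of 9 tested hepatocyte markers 5 (55.6%, beside 16.5% of all features) were called there, 3 higher and 2 lower. Among these calls, C1qc and Fgb passed the filter only through EC-MP, where they were higher. The part of other cell types in any of the Hmox1 differences was not tested.

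Txnrd1 encodes the cytosolic thioredoxin reductase, which keeps thioredoxin reduced with electrons from NADPH. Its values were 4.38, 4.82 and 5.78 in EC-SP and 2.53, 3.06 and 3.60 in EC-MP, and no EC-MP array reached an EC-SP array. The difference of 1.93 ± 0.40 (adjusted p = 0.011), or 3.81-fold, was called under every alternative and with any array left out. The spread within each group was wide, but the 2 arrays of a slide moved together, so that the within-slide differences were 1.85, 1.76 and 2.18. In the subsets Txnrd1 read 4.62, 4.54 and 4.66 in CD157+CD200+ cells, 4.64, 4.51 and 4.38 in CD157-CD200+ cells, and 3.96, 3.45 and 3.70 in CD157-CD200- cells. Both CD200+ subsets lay above the CD157-CD200- arrays and overlapped each other, with CD157+CD200+ minus CD157-CD200+ at 0.09 (95% interval -0.32 to 0.50). CD157+CD200+ minus CD157-CD200- was 0.90 ± 0.18 (adjusted p = 0.0079), or 1.87-fold, and 0.65, 1.09 and 0.96 within the slides. That call was lost only with all 15 arrays in 1 fit (adjusted p = 0.088). CD157-CD200+ minus CD157-CD200- was 0.81 ± 0.18 (adjusted p = 0.017), and this call was lost without CD157-CD200+ replicate 1 (adjusted p = 0.081) or replicate 2 (adjusted p = 0.058), under array median scaling (adjusted p = 0.093) and with all 15 arrays in 1 fit (adjusted p = 0.16). In EC-SP, which had the higher Txnrd1, 6 of 9 cholangiocyte markers (66.7%, beside 9.15% of all features) were also called higher than in EC-MP. Of these, Cdh1 and Sox9 passed the filter only through EC-SP. Between CD157+CD200+ and CD157-CD200- cells, where Txnrd1 was called as well, 0 of 8 tested cholangiocyte markers were called, beside 15.2% of all features. The part of cholangiocytes in the Txnrd1 results was not tested.

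Srxn1 encodes sulfiredoxin, which restores peroxiredoxins after their active cysteine has been over-oxidised. It read 1.09, 1.05 and 2.12 in EC-SP and 1.18, 1.28 and 1.69 in EC-MP. The groups overlapped, EC-SP replicate 3 stood above the rest, and the difference was 0.03 (95% interval -0.70 to 0.77, adjusted p = 0.97). Without that array it was -0.32 (adjusted p = 0.49). In the subsets Srxn1 read 1.26, 0.80 and 1.05 in CD157+CD200+ cells, 0.90, 0.73 and 1.04 in CD157-CD200+ cells, and 1.42, 1.00 and 1.41 in CD157-CD200- cells. CD157-CD200+ minus CD157-CD200- was -0.39 ± 0.20 (adjusted p = 0.31), and -0.52, -0.27 and -0.37 within the slides. With the replicate block it was called lower, at -0.39 ± 0.11 (adjusted p = 0.047). CD157+CD200+ minus CD157-CD200- was -0.24 (95% interval -0.68 to 0.21).

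Gclc and Gclm encode the catalytic and the modifier subunit of glutamate cysteine ligase, the first and limiting enzyme of glutathione synthesis. Gclc read 1.38, 1.58 and 2.08 in EC-SP, 1.24, 1.91 and 1.67 in EC-MP, 1.51, 1.44 and 1.94 in CD157+CD200+, 1.72, 1.52 and 1.72 in CD157-CD200+ and 1.59, 1.63 and 2.13 in CD157-CD200- cells. All groups overlapped. EC-SP minus EC-MP was 0.07 (95% interval -0.55 to 0.70, adjusted p = 0.90), and CD157+CD200+ minus CD157-CD200- was -0.15 (95% interval -0.63 to 0.33, adjusted p = 0.76), so these arrays did not resolve a difference in either direction. The modifier subunit was near the limit of detection. The Gclm probe was well above background on 2 of 3 arrays of EC-SP, of CD157+CD200+ and of CD157-CD200+ cells, and on none of the 3 arrays of EC-MP and of CD157-CD200- cells. It read -3.82, -3.12 and -2.77 in EC-SP, -4.26, -4.40 and -5.13 in EC-MP, -1.01, -4.23 and -3.40 in CD157+CD200+, -3.91, -3.35 and -3.43 in CD157-CD200+ and -5.94, -4.80 and -3.93 in CD157-CD200- cells. CD157+CD200+ replicate 1 stood apart from all other arrays. Without the filter on dim probes EC-SP minus EC-MP was 1.36 ± 0.37 (adjusted p = 0.084) and CD157+CD200+ minus CD157-CD200- was 2.01 ± 0.80 (adjusted p = 0.22), the latter made of within-slide differences of 4.93, 0.57 and 0.52. Both differences are taken against groups in which no array had Gclm well above background, so neither is an exact size. Where an array left out was the 1 of its group at background, Gclm passed the filter through the higher group alone. The counts with 1 array left out include Gclm from such a fit where this is said, but it is not taken as a call of Gclm.

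**Figure D3:**
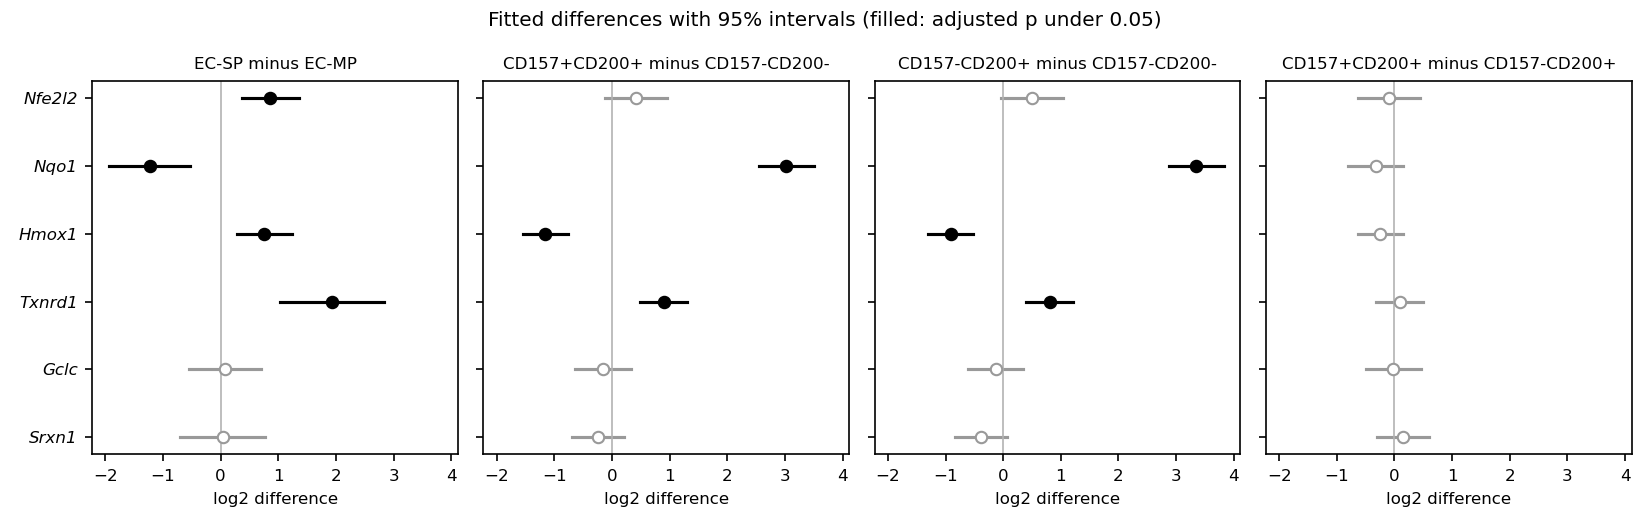
Fitted log2 differences of the 6 tested genes in 4 comparisons, with 95% intervals over n = 3 arrays per group and a common horizontal scale. The fits were made without regard to the slides. Filled points passed an adjusted p of 0.05. Nqo1 lies at -1.23 in the first panel and at 3.03 and 3.35 in the middle panels, and every interval of the last panel includes 0.

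The EC-SP and EC-MP arrays were read on another scanner with another software version than the subset arrays, so levels were not compared across these 2 sets. The differences within each set were, by a contrast fitted on all 15 arrays. It asked whether EC-SP minus EC-MP equals CD157+CD200+ minus CD157-CD200-, 2 differences that share no array. Of the 6 genes 2 were called, against 5.04% of all features, 1 of them higher (2.07% of features) and 1 lower (2.96%). Of the calls over all features 41.2% were higher, and 29.1% in the authors' series table. For Nqo1 the differences of -1.23 and 3.03 were apart by -4.26 ± 0.39 (adjusted p = 1.3e-05), or 19.1-fold. For Hmox1 the differences of 0.76 and -1.16 were apart by 1.92 ± 0.24 (adjusted p = 0.00030). For Txnrd1, higher in the first group of both comparisons, the contrast was 1.03 ± 0.46 (adjusted p = 0.28), which became 1.03 ± 0.19 and a call with the replicate block (adjusted p = 0.011). It was 0.45 for Nfe2l2 (95% interval -0.23 to 1.13), 0.23 for Gclc (-0.52 to 0.97) and 0.27 for Srxn1 (-0.56 to 1.11). For these 3 genes the contrast did not pass the test.

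**Figure D4:**
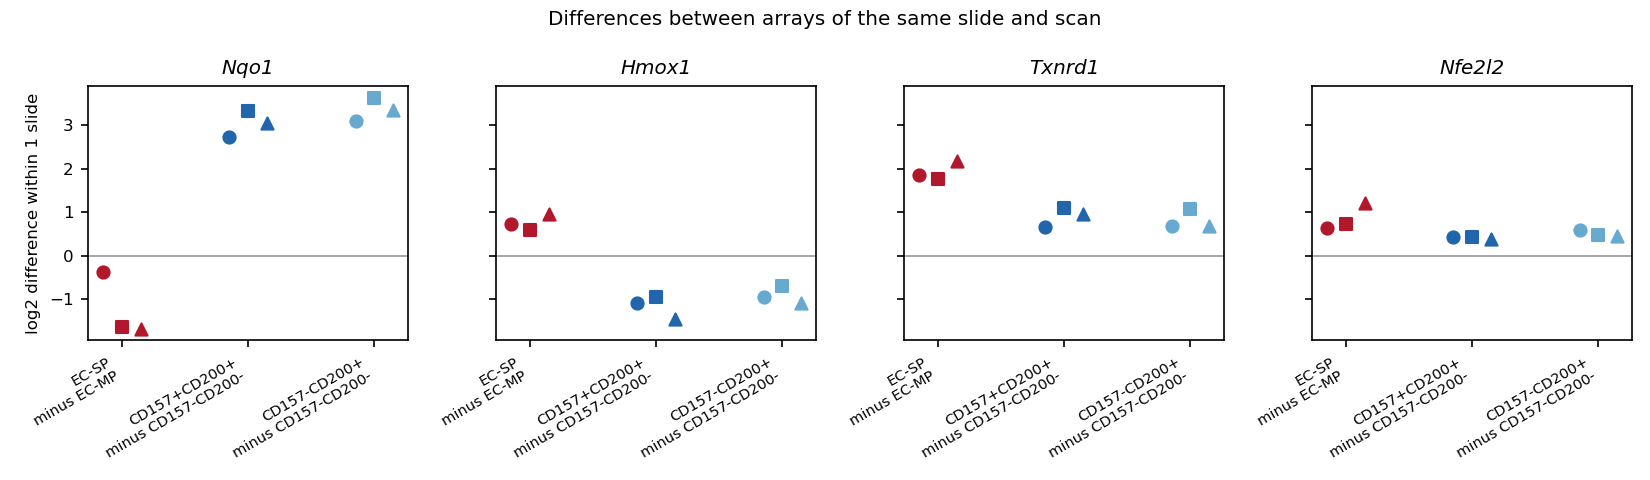
Log2 differences between 2 arrays of the same slide for Nqo1, Hmox1, Txnrd1 and Nfe2l2 in 3 comparisons, on a common vertical scale. Circles, squares and triangles are the slides of replicates 1, 2 and 3. The 3 slides gave the same sign for each gene and comparison shown, with Nqo1 between -1.67 and -0.38 for EC-SP minus EC-MP and between 2.71 and 3.33 for CD157+CD200+ minus CD157-CD200-.

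The wider pathway was read from 9 lists with 121 further genes around NRF2. The lists were chosen with earlier results of these data known, so their shares are only a description. For EC-SP minus EC-MP 108 were tested and 36 (33.3%) called, 22 higher and 14 lower. For CD157+CD200+ minus CD157-CD200- 41 of 111 (36.9%) were called, 24 higher and 17 lower, and for CD157-CD200+ minus CD157-CD200- 37 of 111 (33.3%), 19 higher and 18 lower. These shares stand beside the 16.5%, 15.2% and 11.8% of all features given above, and the medians over the tested genes were small, 0.18, 0.13 and 0.09. The replicate block raised the last count to 56. Without EC-MP replicate 1 the first count was 23, and without CD157-CD200+ replicate 1 the last was 23. Between the 2 CD200+ subsets 4 of 111 genes (3.6%, beside 1.05% of all features) were called. With the block 11 were, and between 0 and 2 when any of their 6 arrays was left out. Of the 108 genes tested in both fits, 17 were called for EC-SP minus EC-MP and for CD157+CD200+ minus CD157-CD200-, 19 for the first alone, 23 for the second alone and 49 for neither. By the contrast between these 2 differences 21 of 111 genes (18.9%, beside 5.04% of all features) were called, 9 higher and 12 lower. Under the replicate block 42 were, and 13 without CD157+CD200+ replicate 1.

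**Figure D5:**
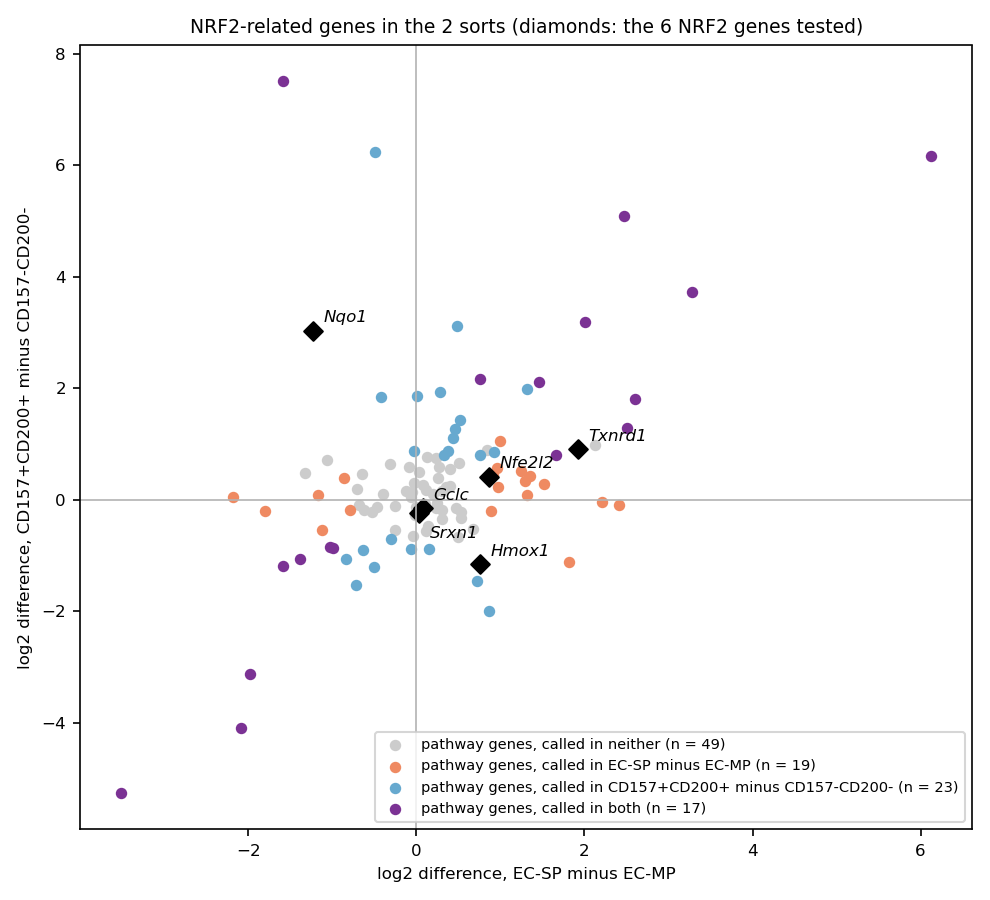
Log2 difference of EC-SP minus EC-MP against that of CD157+CD200+ minus CD157-CD200- for the 108 pathway genes tested in both fits, coloured by where they were called, and for the 6 tested NRF2 genes (diamonds). Genes at background in a group are drawn at their fitted difference. Nqo1 lies at -1.23 and 3.03, Hmox1 at 0.76 and -1.16, and Txnrd1 and Nfe2l2 lie at the upper right, above 0 on both axes.

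Among 15 partners and controllers of NRF2, 5 (33.3%) were called higher in EC-SP than in EC-MP and none lower, beside 16.5% of all features called either way. Maff and Mafk, small MAF proteins that pair with NRF2, were higher by 2.60 ± 0.25 (adjusted p = 0.00028) and 2.51 ± 0.27 (adjusted p = 0.00051). Sqstm1, the autophagy adaptor p62 that binds KEAP1 and is itself an NRF2 target, was higher by 1.52 ± 0.31 (adjusted p = 0.010). The remaining 2, which fall outside the rule for named genes and were named after their values were seen, were the repressor Bach1 (1.29) and the ligase scaffold Cul3 (0.97). Between CD157+CD200+ and CD157-CD200- cells 2 of the 15 (13.3%) were called, a share close to the 15.2% of all features. They were Mafk, higher by 1.29 ± 0.18 (adjusted p = 0.00088), and Maff, higher by 1.81 ± 0.46 (adjusted p = 0.026). Between CD157+CD200+ and CD157-CD200+ cells 2 of the 15 (13.3%, beside 1.05% of all features) were called, Bach1 higher by 1.15 ± 0.16 (adjusted p = 0.0097) and Mafk by 1.01 ± 0.18 (adjusted p = 0.031). Between CD157-CD200+ and CD157-CD200- cells 2 of the 15 (13.3%, beside 11.8%) were called, Bach1 at -0.81 ± 0.16 (adjusted p = 0.0086) and the NRF2 relative Nfe2. Nfe2 was at least 1.70-fold higher, and its adjusted p of 0.039 belongs to the fitted difference of 1.47 ± 0.40. No CD157-CD200- array had it well above background. As it passed the filter only through the CD157-CD200+ cells, where it was higher, its call carries no weight. The median of the list was 0.31 for EC-SP minus EC-MP and 0.22 for CD157+CD200+ minus CD157-CD200-.

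Most enzymes of glutathione and thioredoxin turnover did not pass the test. Of 11 tested genes for glutathione synthesis, recycling and peroxidases, 3 were called higher in EC-SP than in EC-MP and 2 lower, in all 45.5% beside 16.5% of all features. Chac1, which degrades glutathione, was higher by 2.21 ± 0.27 (adjusted p = 0.00087) and the cystine carrier subunit Slc3a2 by 1.00 ± 0.22 (adjusted p = 0.015), while the peroxidase Gpx8 differed by -1.80 ± 0.30 (adjusted p = 0.0044). In CD157+CD200+ against CD157-CD200- cells 1 of the 11 (9.09%, beside 15.2% of all features) was called, the glutathione peroxidase Gpx1, at 0.86 ± 0.19 (adjusted p = 0.014). Of the thioredoxin, peroxiredoxin and superoxide enzymes 2 of 16 (12.5%, below the 16.5% of all features) were called for EC-SP minus EC-MP, namely the mitochondrial superoxide dismutase Sod2 at 1.35 ± 0.22 (adjusted p = 0.0038) and Txnip, an inhibitor of thioredoxin, at -1.38 ± 0.33 (adjusted p = 0.022). For CD157+CD200+ minus CD157-CD200- 4 of 17 (23.5%, beside 15.2% of all features) were called, 2 higher and 2 lower. Txnrd3, a relative of Txnrd1, stood at 1.93 ± 0.20 (adjusted p = 0.00013), the extracellular superoxide dismutase Sod3 at 1.85 ± 0.27 (adjusted p = 0.0011), and Txnip again at -1.07 ± 0.16 (adjusted p = 0.0011). The enzymes that supply NADPH gave 1 call of 6 (16.7%, beside 16.5% of all features) for EC-SP minus EC-MP, Idh1 at -1.0 ± 0.25 (adjusted p = 0.029). They gave 3 (50%, beside 15.2% of all features) for CD157+CD200+ minus CD157-CD200-. Malic enzyme Me1 stood at 1.98 ± 0.22 (adjusted p = 0.00017), glucose-6-phosphate dehydrogenase G6pdx at 0.88 ± 0.21 (adjusted p = 0.020) and Idh1 at -0.87 ± 0.21 (adjusted p = 0.022).

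Detoxification enzymes other than Nqo1 also differed in both directions. Of 16 tested detoxification enzymes and conjugate transporters 10 (62.5%, beside 15.2% of all features) were called between CD157+CD200+ and CD157-CD200- cells, 4 higher and 6 lower. Ephx1, the microsomal epoxide hydrolase, was higher by 3.11 ± 0.19 (adjusted p = 4.9e-06). Nqo2, the relative of Nqo1, differed by -3.13 ± 0.19 (adjusted p = 4.5e-06), opposite in sign to Nqo1, and the aldo-keto reductase Akr1b8 by -4.10 ± 0.17 (adjusted p = 4.9e-07). In EC-SP against EC-MP 7 of 16 (43.8%, beside 16.5% of all features) were called, 2 higher and 5 lower. Akr1b8 stood at -2.08 ± 0.31 (adjusted p = 0.0024), Nqo2 at -1.98 ± 0.32 (adjusted p = 0.0036) and the transporter Abcc5 at -1.17 ± 0.22 (adjusted p = 0.0073). Nqo1 and Nqo2 thus were both lower in EC-SP, whereas in the subsets Nqo1 was higher and Nqo2 lower in the CD157+CD200+ cells. Of 14 tested glutathione transferases 5 (35.7%, beside 15.2% of all features) were called between CD157+CD200+ and CD157-CD200- cells, 4 of them higher. Microsomal Mgst1 stood at 2.16 ± 0.18 (adjusted p = 2.8e-05), Gstm5 at 1.84 ± 0.28 (adjusted p = 0.0016) and mitochondrial Gstk1 at -1.54 ± 0.20 (adjusted p = 0.00059). For EC-SP minus EC-MP 4 of 13 (30.8%, beside 16.5% of all features) were called, 3 of them higher, led by Gsta3 at 1.82 ± 0.34 (adjusted p = 0.0068). The Gsta and Gstm genes have close copies, so probes can share signal between them and their values are uncertain.

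Of 16 tested haem and iron genes 7 (43.8%, beside 15.2% of all features) were called between CD157+CD200+ and CD157-CD200- cells. Between CD157-CD200+ and CD157-CD200- cells 7 were called as well (43.8%, beside 11.8%). Each of these calls was lower, as for Hmox1, with list medians of -0.57 and -0.46. The other 9 did not pass in either comparison, and the ferritin heavy chain Fth1, named after its values were seen, had the opposite sign, at 0.65 and 0.48 (adjusted p = 0.062 and 0.20). Slc40a1, the iron exporter ferroportin, differed by -5.27 ± 0.20 (adjusted p = 3.1e-07) and -3.91 ± 0.20 (adjusted p = 1.8e-06). Hamp, the hepatocyte hormone hepcidin, differed by -2.01 ± 0.44 (adjusted p = 0.012) and haptoglobin, Hp, also a hepatocyte product, by -1.21 ± 0.27 (adjusted p = 0.014) in the first of these comparisons. Blvrb, a biliverdin reductase, differed by -1.23 ± 0.25 (adjusted p = 0.010) in the second. Slc40a1 also stands in the Kupffer cell list, and the Kupffer cell, hepatocyte and red cell sums were all higher in CD157-CD200- cells. Their part in these differences was not tested. In EC-SP against EC-MP the list split, with 2 of 15 called higher and 2 lower, in all 26.7% beside 16.5% of all features. Tfrc, the transferrin receptor, stood at 2.41 ± 0.30 (adjusted p = 0.00088), the haem exporter Flvcr1 at 1.32 ± 0.24 (adjusted p = 0.0061) and Slc40a1 at -3.51 ± 0.35 (adjusted p = 0.00030). Slc40a1 was therefore lower in EC-SP while Hmox1 was higher.

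Nqo1 is also a target of the aryl hydrocarbon receptor, whose other target genes are grouped with it in a classical battery. Of 6 tested genes of that battery 4 (66.7%, beside 15.2% of all features called either way) were called higher in CD157+CD200+ than in CD157-CD200- cells. Cyp1a1, a monooxygenase and the best known target, was at least 11.2-fold higher (adjusted p of the fitted difference 0.00022) and the receptor's repressor Ahrr at least 6.37-fold (adjusted p of the fitted difference 0.00030). No CD157-CD200- array had either gene well above background, so both passed the filter only through other groups. Cyp1b1 differed by 7.51 ± 0.88 (adjusted p = 0.00028) and was well above background on only 1 of 3 CD157-CD200- arrays, so that the size of this difference is not exact. It too passed the filter only through other groups. The calls of Cyp1a1, Ahrr and Cyp1b1 here therefore carry no weight. Against CD157-CD200- cells the CD157-CD200+ cells had 2 calls (33.3%, beside 11.8% of all features). They were Cyp1b1 at 7.90 ± 0.88 (adjusted p = 0.00026) and Cyp1a1 at least 10.08-fold higher (adjusted p of the fitted difference 0.00033). The same limit holds for these calls. In EC-SP against EC-MP 4 of the 6 (66.7%, beside 16.5% of all features) were called, 3 higher and 1 lower. Cyp1a1 was higher by 2.47 ± 0.29 (adjusted p = 0.00067) and Tiparp, which restrains the receptor, by 1.66 ± 0.23 (adjusted p = 0.0014). Ahrr, named outside the rule, was higher by 3.27 ± 0.61 (adjusted p = 0.0068, well above background on 1 of 3 EC-MP arrays). Cyp1a1 was well above background on 2 of 3 EC-MP arrays. Cyp1a1 and Ahrr thus passed the filter only through EC-SP, where they were higher, so these calls carry no weight. Only Cyp1b1 was lower there, at -1.58 ± 0.25 (adjusted p = 0.0031), and had the signs of Nqo1 in both sorts. The other 3 were called higher in both. The part of the receptor in the Nqo1 result was not tested. The core xenobiotic response element, GCGTG on either strand, was held by 32.4% of all promoter windows. It occurred in the windows of Gclm, of Srxn1 and of each of the 3 Txnrd1 starts, and not in those of Nqo1 and Nfe2l2. Bases further than 250 before a start were not searched, so its absence from a window does not bear on control by the receptor.

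Genes of the response to laminar flow were read because flow is known to raise NRF2 activity in endothelium. Of 10 tested, 4 (40%, beside 16.5% of all features) were called for EC-SP minus EC-MP, 3 of them higher. Between CD157+CD200+ and CD157-CD200- cells 5 (50%, beside 15.2%) were called, all higher. The endothelin gene Edn1, which flow is known to lower, was higher in CD157+CD200+ cells by 6.24 ± 0.31 (adjusted p = 1.2e-06) and caveolin Cav1 by 3.19 ± 0.41 (adjusted p = 0.00050). The semaphorin Sema7a was higher at least 25.3-fold (adjusted p of the fitted difference 2.9e-06), and no CD157-CD200- array had it well above background. In EC-SP Cav1 was higher by 2.00 ± 0.24 (adjusted p = 0.00073), Sema7a by 6.13 ± 0.49 (adjusted p = 0.00011, well above background on 1 of 3 EC-MP arrays), and Ptgs1, a prostaglandin synthase, was lower at -2.18 ± 0.24 (adjusted p = 0.00055). Sema7a is counted in both shares. In neither fit did it pass the filter through the lower group, so its calls carry no weight. Klf2 and Klf4 of this list, named after their values were seen, were called in neither comparison. Klf2 stood at -0.71 ± 0.25 (adjusted p = 0.085) for EC-SP minus EC-MP and 0.19 ± 0.22 (adjusted p = 0.69) for CD157+CD200+ minus CD157-CD200-. Klf4 stood at 0.84 ± 0.27 (adjusted p = 0.065) and 0.88 ± 0.27 (adjusted p = 0.053).

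For each of the 4 genes called in at least 1 comparison, the 3 genes with the most similar pattern over the 15 arrays were found among 13641, by the root mean square log2 difference after the mean of each array set was removed. Nearest to Nqo1 were Klk8 (0.268), Rbms3 (0.305) and Hrct1 (0.334). As genes chosen for that likeness on these arrays they share its signs by the choice, with Klk8 at -1.61 for EC-SP minus EC-MP and 2.70 for CD157+CD200+ minus CD157-CD200-, against -1.23 and 3.03 for Nqo1. Nearest to Hmox1 were Sgk1 (0.168), H2az1 (0.173) and Zfp217 (0.190), with Sgk1 at 0.68 and -0.84. Nearest to Txnrd1 were Trp53bp2 (0.281), Epha2 (0.288) and Uap1 (0.302), and nearest to Nfe2l2 were Atp1b3 (0.141), Gpbp1 (0.149) and Prpf38a (0.151). Genes with a small range lie close to many others, so distances are not compared between the 4 genes, and none of the 4 was among the 3 nearest genes of another.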

How the data were processed

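Spot values were read from the scanner files, which hold background-subtracted Cy3 intensity on a linear scale, deposited by the authors from Agilent Feature Extraction (per the labels and the file headers). Per the file headers version 10.10.1.1 read EC-SP and EC-MP and version 11.5.1.1 the subsets. The authors' series table is that intensity times an array-specific constant (5.46 to 10.1), linear and uncentred, and the basis of the constant was not given in the sources. The medians of its columns were 256.5, 299.6 and 286.1 in EC-SP, 299.5, 331.2 and 335.4 in EC-MP, 255.8, 278.4 and 252.3 in CD157+CD200+, 265.0, 293.0 and 262.8 in CD157-CD200+ and 218.3, 296.6 and 238.5 in CD157-CD200-.

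Control spots were left out, outlier spots set to missing (110 to 213 of 59305 per array) and spots of a probe averaged. Each value was log2 of the signal minus log2 of the array's 75th percentile. Probes were named through RefSeq accessions, and the brightest probe stood for a gene. A feature was tested if well above background on all 3 arrays of a group in the fit. Models were fitted with lmFit and eBayes of limma 3.58.1 (R 4.3.3) on 6 arrays for EC-SP and EC-MP, on 9 for the subsets and on 15 for the contrast between the sorts, with 23973, 23703 and 25065 features. Adjusted p-values are Benjamini-Hochberg over all features of a comparison, two-sided, and called under 0.05. Where no array of a group was well above background, a fold is a lower bound, taken on each array against the dimmest probe well above background, or against the probe's own signal where that was larger.

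Each replicate number was 1 slide and scan. Arrays of the same number correlated after group means were removed at r = 0.27 to 0.33 (EC-SP and EC-MP) and 0.27 to 0.63 (subsets), arrays of different numbers at -0.20 to -0.08 and -0.49 to 0.03, so the numbers were taken as pairs and the block was fitted as an alternative. For normexp the median in place of the mean spot signal was used, the mean being no column here. Named from the 9 pathway lists are at most 3 called genes per list and comparison, by lowest adjusted p. The NRF2 genes and all lists were chosen with earlier results of these data known.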

Additional observations from a re-analysis of the deposited data

Results flagged for a closer look

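The contrast of EC-SP minus EC-MP against CD157+CD200+ minus CD157-CD200- passed the test for 2 of the 6 NRF2 genes tested. For Nqo1 it was -4.26 ± 0.39 (limma, adjusted p = 1.3e-05), with the gene lower in EC-SP in 3 of 3 slides and higher in CD157+CD200+ cells in 3 of 3 slides. For Hmox1 it was 1.92 ± 0.24 (limma, adjusted p = 0.00030), with the gene higher in EC-SP in 3 of 3 slides and lower in CD157+CD200+ cells in 3 of 3 slides. Both calls of the contrast were made with each of the 15 arrays left out in turn and under the 9 other alternatives. For EC-SP minus EC-MP alone, the Hmox1 call was lost under 11 of 17 alternatives and the Nqo1 call under 5 of 16. The dimmer Hmox1 probe gave 0.33 ± 0.24 there (limma, adjusted p = 0.39). The marker sums of other cell types that differ between the same groups stand beside the results, and their part was not tested.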

How the results depend on the processing

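The 6 tested genes gave 586 differences under alternatives, of which 535 kept direction and call, 29 lost the call, 4 gained it and 18 changed sign. None of the 18 had been called. The sign changes were Srxn1 for EC-SP minus EC-MP (-0.0098 with quantile normalization, -0.13 in the series table, -0.32 to 0.22 with 1 array left out) and for the contrast between the sorts (-0.080 to 0.46), Nfe2l2 for CD157+CD200+ minus CD157-CD200+ (-0.25 to 0.049), and Gclc for EC-SP minus EC-MP (-0.088 in the series table, -0.12 to 0.23), CD157+CD200+ minus CD157-CD200- (-0.31 to 0.020), CD157+CD200+ minus CD157-CD200+ (0.0029 with array median scaling, -0.18 to 0.073) and CD157-CD200+ minus CD157-CD200- (-0.23 to 0.043). For EC-SP minus EC-MP the number of NRF2 genes called went from 4 to 2 in the series table, to 1 with no filter on dim probes and to 1 to 3 with 1 array left out (the 3 include Gclm), and the pathway genes called from 36 to 23 with no filter and 23 to 33 with 1 array left out. With the replicate block, 5 in place of 3 NRF2 genes were called for CD157-CD200+ minus CD157-CD200-, and pathway calls rose there from 37 to 56, for any difference among the subsets from 42 to 66 and for the contrast between the sorts from 21 to 42. With 1 array left out they were 23 to 36 and 13 to 22 for the first and the last of these. For CD157+CD200+ minus CD157-CD200+ the 4 pathway calls became 7 with normexp, 2 with no filter, 11 with the replicate block, 2 with all 15 arrays in 1 fit and 0 to 4 with 1 array left out. Over all features the block moved the calls from 3610 to 6923, 248 to 725, 2804 to 5279, 3295 to 6350 and 1263 to 3190 in the 5 comparisons that use the subsets. No filter moved 3965 to 2284 for EC-SP minus EC-MP, and 248 became 376 with normexp, 162 with only probes above background on every array and 101 to 256 with 1 array left out. Array median scaling shifted the median contrast of all features to 0.13 and the series table to -0.15. The block changed no other call of an NRF2 gene than those given in the results. The causes were not tested. Signal over background limits Gclm, and 3 arrays per group limit the rest.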
